A study of Mus musculus with 16 samples.

Results

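The shared locus of miR-221 and miR-222 on the mouse X chromosome was followed through 3 of the 43432 gene rows of the RNA-seq table, Mir221, Mir222 and Gm14636, and through the Ago2 CLIP signal in a window of 30000 nt on the minus strand that holds these rows. Of the 962084 CLIP regions kept from the deposited output, 7 lay in this window. The 3 rows were selected on their known KO and Flox values, so those values are given as a description with no test. The series compares splenic B cells of KO mice, in which this locus is deleted, with those of Flox mice, which carry the loxP-flanked locus. There were 4 KO and 4 Flox RNA-seq libraries of total RNA and 4 KO and 4 Flox Ago2 HITS-CLIP libraries of Ago2-bound RNA, 16 in all. All came from strain C57B6L/J, as the labels spell it, and from cells kept for 4 days in culture with an antibody to CD40 (aCD40, 500 ng/ml), IL4 (25 ng/ml) and IL21 (10 ng/ml), which drive B cells to divide and switch antibody class. The Cre driver, the ends of the deleted stretch, the age of the mice and whether each library came from a separate mouse are not given in the sources used here.

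MicroRNAs are cut from hairpins in longer primary transcripts, loaded into an Argonaute protein such as Ago2, and guided to messenger RNAs mainly by their seed, the bases next to the 5′ end. The miR-221 and miR-222 hairpins lie close together and are made from a shared primary transcript. They are best known as repressors of the cell cycle inhibitor Cdkn1b (p27), of Kit and of the cell death gene Bbc3 (Puma). Sequencing of total RNA reads long primary transcripts far better than the short hairpins, and Ago2 HITS-CLIP reads the RNA fragments that stay crosslinked to Ago2.

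The mature miRNAs that RefSeq lists for the deleted locus are shown because they are its products and because both 3p forms share a seed. miR-1928, which is not of this locus, is shown because it has the same seed. The sequences are from RefSeq (GRCm38.p6), 5′ to 3′, all on the minus strand, with the seed (bases 2 to 8) in capitals.
miR-221-3p, chrX:19146307-19146329: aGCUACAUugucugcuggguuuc
miR-222-3p, chrX:19146901-19146923: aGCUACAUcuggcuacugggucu
miR-221-5p, chrX:19146344-19146369: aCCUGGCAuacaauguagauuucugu
miR-1928, chr1:74206562-74206578: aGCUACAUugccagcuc

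The first 8 bases of miR-221-3p and miR-222-3p were the same, and from base 9 on 3 of 15 positions matched without gaps. Of 1738 mature mouse miRNAs in the RefSeq table, 3 had the seed GCUACAU: miR-221-3p, miR-222-3p and miR-1928, a 17-nt miRNA of chromosome 1. miR-1928 matched the first 10 bases of miR-221-3p and the first 8 of miR-222-3p. The Mir1928 row of the gene table held no read in any of the 8 RNA-seq libraries. Of 1051 miRNA precursor rows 859 held none in any library, so the level of miR-1928 cannot be read from this. The star strand miR-221-5p had another seed, CCUGGCA.

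The hairpins are shown because they are the spans that the Mir221 and Mir222 rows count, with the mature miRNAs in capitals.
Mir221 hairpin, chrX:19146294-19146388: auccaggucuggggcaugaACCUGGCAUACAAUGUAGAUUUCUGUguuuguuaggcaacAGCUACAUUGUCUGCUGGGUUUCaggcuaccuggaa
Mir222 hairpin, chrX:19146893-19146971: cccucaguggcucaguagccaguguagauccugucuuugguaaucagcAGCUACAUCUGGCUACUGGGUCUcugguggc

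The gene table and RefSeq GRCm38.p6 gave the same positions for both hairpins. The Mir221 row (ENSMUSG00000065422, 95 nt, 47.4% GC) and the Mir222 row (ENSMUSG00000065471, 79 nt, 54.4% GC) lie 504 nt apart, with Mir222 upstream of Mir221 in the direction of transcription. Gm14636 (ENSMUSG00000073274), which the table calls a processed transcript, runs on the same strand at chrX:19156981-19167241, a span of 10261 nt with 36.3% GC. Its 3′ end lies 10009 nt upstream of the Mir222 hairpin. RefSeq draws Gm14636 as a longer lncRNA gene at chrX:19156471-19237850, a span of 81380 nt or 7.93 times that of the table, whose 3′ end lies 9499 nt and whose 5′ end lies 90879 nt upstream of the hairpin. That model also covers nearly all of a second row of the table, Gm26652 (ENSMUSG00000097497, a lincRNA at chrX:19224789-19237856), which starts 6 nt further 5′ than the RefSeq model. Exon positions were not used here, so no statement is made on exons and introns.

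**Figure D1:**
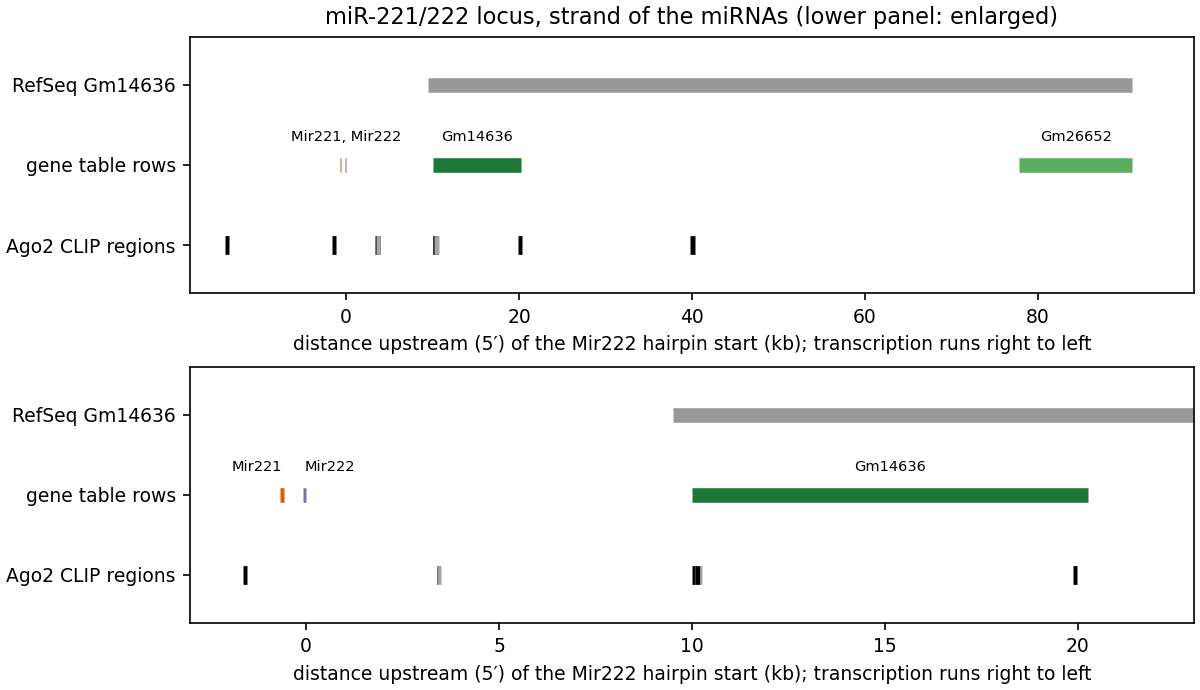
Map of the locus of miR-221 and miR-222 on the strand of the miRNAs, with distance upstream of the Mir222 hairpin start in kb on the x axis; black CLIP regions have the authors' state 0 and grey ones state 1, and short regions in the upper panel are widened to be visible. The RefSeq model of Gm14636 reaches from the Gm14636 row to the Gm26652 row, and neither hairpin lies under a CLIP region.

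Before the values, the libraries need a short account. Reads assigned to gene rows, recovered from the normalized counts, came to between 22947689 and 39236132 per KO library and between 25421025 and 39616596 per Flox library. A principal component analysis of the tested genes gave KO 1 to 4 scores of -38.0, -15.3, -35.6 and 7.47 on its first axis (33.5% of the variance), against 14.5 to 26.5 for the Flox libraries. Every KO library thus lay below every Flox library, with KO 1 and KO 3 furthest from the Flox libraries. All 7 B cell markers were read in every group, and they summed to between 288768 and 538732 normalized counts per KO library and between 314142 and 493972 per Flox library. The 5 T cell markers summed to 5.2 to 30.0 in KO and 7.0 to 24.8 in Flox, the 5 myeloid markers to 70.5 to 102.9 in KO and 47.0 to 92.6 in Flox, and the 3 NK cell markers to 0 to 11.6 in KO and 0 to 9.3 in Flox, with Ncr1 at 0 throughout. The 3 red cell markers were at 0 in all 8 libraries. The 3 plasma cell markers summed to 7243 to 16361 in KO and 7863 to 15351 in Flox. In bulk RNA, fewer cells of a type and less RNA per cell cannot be told apart.

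The hairpin rows held almost no reads. Mir221 had 0, 0, 0 and 0 reads in KO libraries 1 to 4, against 0, 0, 3 and 1 reads in Flox libraries 1 to 4. Its normalized counts were 0 in every KO library, and 0, 0, 3.5 and 1.0 in Flox 1 to 4. Flox 1 and Flox 2 were thus level with the KO libraries, and a count of 0 allows up to 3 reads per library, so no fold is given. Mir222 had 0 reads in all 8 libraries, with the same limit of 3 reads in each. The authors' deposited table gives Mir221 a log2 fold change of -2.52 and no p-value, and gives Mir222 neither. The KO and Flox labels therefore could not be checked at the hairpins themselves.

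Most other miRNA hairpin rows were read as thinly. Of 1051 miRNA precursor rows, 859 had no read in any library, 192 had at least 1 read in all libraries together, and 9 reached the mean of 10 normalized counts needed for the test across genes. Mir155, Mir21a, Mir17, Mir22 and Mir150, hairpins of miRNAs well known in B cells, were among the rows at 0 in every library. Whether the reads of the higher rows came from the hairpin or from a longer RNA over the same span was not tested. The highest row, Mir6236, averaged 2000 ± 796 normalized counts in KO, against 1805 ± 262 in Flox (SD, n = 4 each), a log2 fold change of 0.08 (limma-trend adjusted p = 0.877). Mir6236 reversed to -0.16 without KO 1, -0.02 without Flox 1 and -0.24 without KO 1 and KO 3 together. Mir5107 averaged 131 ± 67.9 in KO, against 184 ± 19.3 in Flox, and Mir5125 averaged 93.1 ± 27.6 in KO, against 67.2 ± 20.4 in Flox (log2 fold changes -0.64 and 0.48, limma-trend adjusted p = 0.373 and 0.428). Mir5107 was at -0.30 without KO 3 and its sign turned, to 0.014, without KO 1 and KO 3 together. Mir5125 was at 0.23 without Flox 1 and 0.13 without KO 1 and KO 3 together. Mir8112 was at 43.2 ± 19.7 in KO and 25.6 ± 5.74 in Flox (log2 fold change 0.65, limma-trend adjusted p = 0.388, and 0.40 without KO 2). Mir8116 was at 42.5 ± 11.7 in KO and 24.9 ± 3.12 in Flox, with every KO library above every Flox library, as in 4.18% of the 13091 genes tested (log2 fold change 0.72, SE 0.27, limma-trend adjusted p = 0.278). Of the 9 tested precursor rows 0 passed in limma, edgeR or DESeq2, where limma called 0.0687% of all tested genes (9 of 13091), and 2 of the 9 had an unadjusted limma p under 0.05, against 1981 of 13091 genes (15.1%).

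Among the rows of the locus, Gm14636 told the genotypes apart. KO 1 to 4 gave it 288, 220, 238 and 248 reads, against 1, 2, 1 and 3 reads in Flox 1 to 4. In normalized counts, which divide out library depth, these were 304.4, 286.9, 275.2 and 188.0 in KO 1 to 4, against 0.8, 1.7, 1.2 and 3.1 in Flox 1 to 4. The groups did not overlap: the lowest KO library, KO 4, was far above the highest Flox library, Flox 4. Groups that do not overlap with KO higher were found in 4.18% of the 13091 genes tested (547), and since the row was selected on this contrast nothing is read from that share.

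Gm14636 averaged 264 ± 51.8 in KO, against 1.7 ± 1.0 in Flox, in normalized counts (SD, n = 4 each). In CPM, counts scaled to library depth, it was at 8.76 ± 1.69 in KO and 0.0573 ± 0.0348 in Flox. The summed reads were 994 in KO and 7 in Flox, a ratio of 157 after scaling for depth, with a 95% exact interval of 75.9 to 391 that covers counting error only. The fitted log2 fold change on log2(normalized count + 1) was 6.66, which the added 1 makes smaller than the ratio of reads, and it was 6.49 to 6.88 with any 1 library left out and 6.50 without KO 1 and KO 3 together. By size of log2 fold change Gm14636 ranked 2 among the 13091 tested genes, below Gm9855 (7.24), a processed pseudogene row of chromosome 10. The authors' deposited table gives Gm14636 a log2 fold change of 7.33, a fold change of 161 and an FDR of 1.41e-32, which ranks 3 in that table, where 191 of 12118 genes (1.58%) have an FDR under 0.05. Since the row was selected on this contrast, nothing is read from these ranks.

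Even in KO cells Gm14636 was read less than most tested genes. Its KO mean was above that of 31.3% of tested genes, without regard to length. Among the KO libraries its coefficient of variation was 19.7%, against a median of 17.1% for the 2186 genes with a KO mean within 2-fold of it, of which 60.2% varied less. KO 4, the KO library nearest the Flox libraries on the first principal component, was also the lowest of the KO libraries for Gm14636. Of the 3 rows, Gm14636 alone reached the mean of 10 normalized counts, and it did so through the KO libraries.

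**Figure D2:**
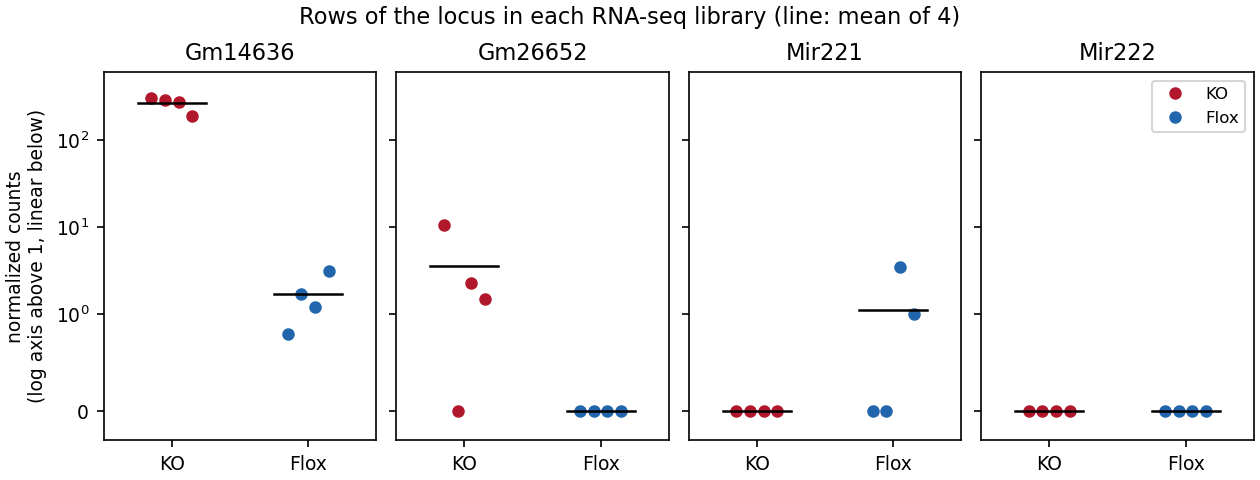
Normalized counts (log axis above 1, linear below) of the 4 gene table rows of the locus in the 4 KO and 4 Flox RNA-seq libraries, one point per library, with a line at the mean. Gm14636 lies at 188.0 to 304.4 in KO and 0.8 to 3.1 in Flox, while Mir221 and Mir222 lie at 0 in KO and at most 3.5 in Flox.

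Gm26652, whose row overlaps the 5′ part of the RefSeq model of Gm14636, was picked after its values were seen. It had 10, 0, 2 and 2 reads in KO 1 to 4, against 0 reads in each Flox library. KO 2 was at 0 like the Flox libraries, so the groups overlapped, and the row was too low for the test. Normalized, it was at 10.6, 0, 2.3 and 1.5 in KO 1 to 4 and at 0 in Flox. Gm14636 and Gm26652 together had 298, 220, 240 and 250 reads in KO 1 to 4, so Gm14636 carried nearly all of the reads that the table assigns to the RefSeq model.

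The stretch at the 5′ end of the RefSeq model is shown because RefSeq puts the start of Gm14636 there; where the RNA read in the KO libraries starts was not tested. It is chrX:19237801-19238100 (GRCm38.p6, minus strand), 250 bases before to 50 after the start, with matches to the GC box GGGCGG or its reverse complement CCGCCC in capitals.
Gm14636 promoter: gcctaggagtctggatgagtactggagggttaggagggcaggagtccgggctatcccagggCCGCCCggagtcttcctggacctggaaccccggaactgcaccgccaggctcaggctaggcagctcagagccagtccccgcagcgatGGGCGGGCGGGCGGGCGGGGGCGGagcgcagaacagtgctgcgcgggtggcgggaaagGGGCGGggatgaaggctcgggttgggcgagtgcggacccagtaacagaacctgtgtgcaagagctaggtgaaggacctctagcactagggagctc

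This window was 67.3% GC, against a median of 52.7% over 32851 RefSeq promoters of the same length, and held 20 CpG, more than 73.5% of them. The GC box letters, searched on both strands, matched 7 times in 3 stretches, with overlapping matches counted. They occur at least once in 35.7% of promoters and at least 7 times in 0.627%. The letters TATAAA (in 13.6% of promoters) and CCAAT (37.4%), each searched on both strands, do not occur in this window.

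The next comparison set Gm14636 beside miRNA host genes from elsewhere in the genome, long RNAs from whose span a miRNA is cut. Neither hairpin of the locus lies in the annotated span of Gm14636, whose 3′ end is 10009 nt upstream of the Mir222 hairpin (9499 nt in RefSeq). Gm14636 and the hosts are thus not like for like. Per kb of annotated span, Gm14636 averaged 25.7 ± 5.05 normalized counts in KO, against 0.166 ± 0.0978 in Flox. Mir22hg was at 55.3 ± 13.2 in KO and 77.0 ± 18.3 in Flox on the same scale, so Gm14636 in KO cells stayed below the lowest of the 4 well-read hosts. Mir17hg, host of the miR-17 to miR-92 cluster, was at 233 ± 55.4 in KO and 235 ± 36.2 in Flox. Mir155hg, host of the activation miRNA miR-155, was at 266 ± 88.0 in KO and 233 ± 44.1 in Flox. Mir142hg, host of the blood cell miRNA miR-142, was at 418 ± 194 in KO and 703 ± 61.6 in Flox. Spans include introns, so a level per kb of span is lower than a level per kb of mature RNA wherever introns are long.

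None of these hosts passed the test between KO and Flox. Of 10 host rows 4 were tested and 0 passed in limma, edgeR or DESeq2. Over all tested genes limma called 0.0687% and DESeq2 1.52%, so 0 of 4 is near that share. An unadjusted limma p under 0.05 was found for 2 of the 4, against 15.1% of all tested genes. Their median log2 fold change was -0.25, against -0.01 over all tested genes. Mir142hg was at 659.6, 899.8, 267.1 and 1008.0 normalized counts in KO 1 to 4, against 1045.8, 1193.6, 1291.1 and 1230.4 in Flox 1 to 4. Every KO library lay below every Flox library (7.97% of tested genes do not overlap in either direction), with KO 3 far below the rest. Its log2 fold change was -0.91 (SE 0.33, limma-trend adjusted p = 0.271), -0.49 without KO 3 and -0.32 without KO 1 and KO 3 together. Mir22hg was at 284 ± 68.0 in KO and 396 ± 94.3 in Flox, a log2 fold change of -0.47 (SE 0.21, limma-trend adjusted p = 0.319). Mir155hg (0.15, SE 0.21) and Mir17hg (-0.03, SE 0.17) had limma-trend adjusted p of 0.749 and 0.943, and their signs turned when some libraries were left out. Mir99ahg and Mir124a-1hg had 2 and 1 reads in all libraries together, and Mir670hg, Mir133a-1hg, Mir9-3hg and Mir124-2hg had 0.

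**Figure D3:**
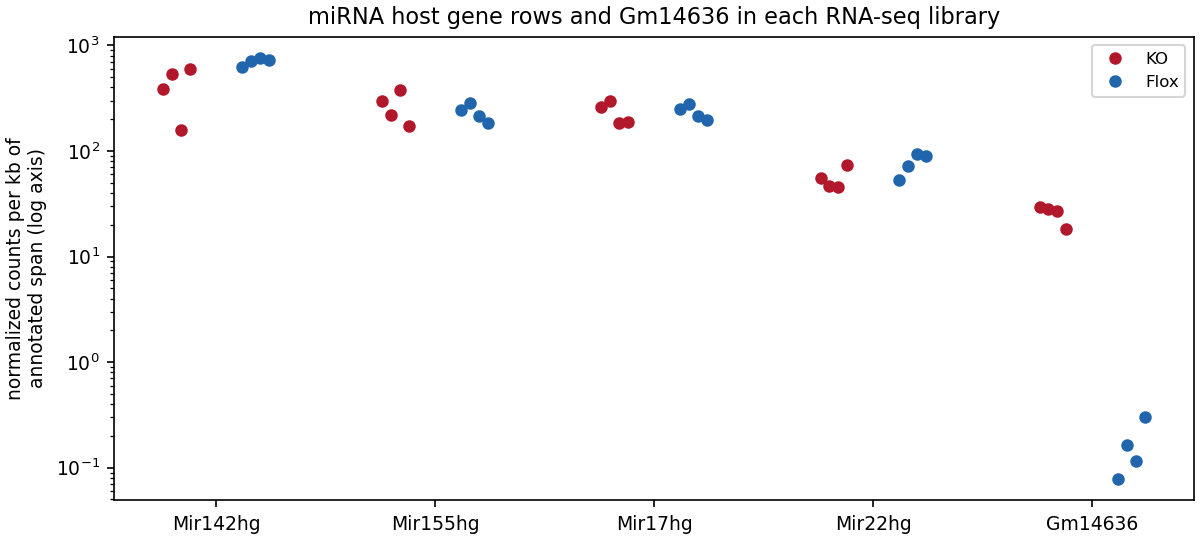
Normalized counts per kb of annotated span (log axis) of the 4 tested miRNA host genes and of Gm14636, one point per RNA-seq library, KO left of Flox. Gm14636 lies near 25.7 in KO, below the Mir22hg mean of 55.3, and near 0.166 in Flox.

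The genes around the locus were then examined. Within 1 Mb on either side lay 18 other rows, of which 10 had no read in any library and 3 were tested, and 0 of these passed in limma, edgeR or DESeq2. Over all tested genes limma called 0.0687% and DESeq2 1.52%, so 0 of 3 is near that share. Kdm6a, a demethylase of lysine 27 of histone H3, lies on the left of the locus, at -866 kb (chrX:18162575-18279936). It was at 2005.1, 1894.8, 2104.3 and 1807.6 normalized counts in KO 1 to 4, against 1974.5, 1977.2, 1739.2 and 1520.7 in Flox 1 to 4. The groups overlapped, with a log2 fold change of 0.12 (SE 0.10, limma-trend adjusted p = 0.563), which was 0.042 without Flox 4 and 0.046 without KO 1 and KO 3 together.

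Chst7, a carbohydrate sulfotransferase, lies on the right at 892 kb (chrX:20059560-20097521). It was at 237.8, 431.6, 240.5 and 272.1 in KO 1 to 4, against 255.4, 277.5, 306.8 and 303.7 in Flox 1 to 4, a log2 fold change of 0.01 (SE 0.19, limma-trend adjusted p = 0.991). KO 2 was high and the other KO libraries lay within or below the Flox range, and the sign turned to -0.19 without KO 2. Slc9a7, a sodium and potassium proton exchanger of the Golgi, lies on the right at 939 kb (chrX:20105754-20291807). It was at 1671.1, 1592.3, 1708.9 and 1534.8 in KO 1 to 4, against 1414.7, 1388.2, 1328.1 and 1281.1 in Flox 1 to 4. The groups did not overlap, as in 4.18% of tested genes with KO higher. The log2 fold change of 0.27 (SE 0.08) did not pass, with a limma-trend adjusted p of 0.240 and an FDR of 0.0880 in the authors' deposited table.

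Within 2 Mb there were 59 other rows and 17 tested genes, of which 0 passed in limma, edgeR or DESeq2. Over all tested genes limma called 0.0687% and DESeq2 1.52%. An unadjusted limma p under 0.05 was found for 4 of the 17, against 15.1% of all tested genes. The log2 fold changes of the 17 ran from -0.38 (Ndufb11, a subunit of respiratory complex I) to 0.35 (Cfp, the complement factor properdin), 12 positive and 5 negative. The median was 0.09, against -0.01 over all tested genes. The value of 6.66 for Gm14636 was larger than that of each of these 17 genes, but the row was selected on this contrast, so nothing is read from that.

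**Figure D4:**
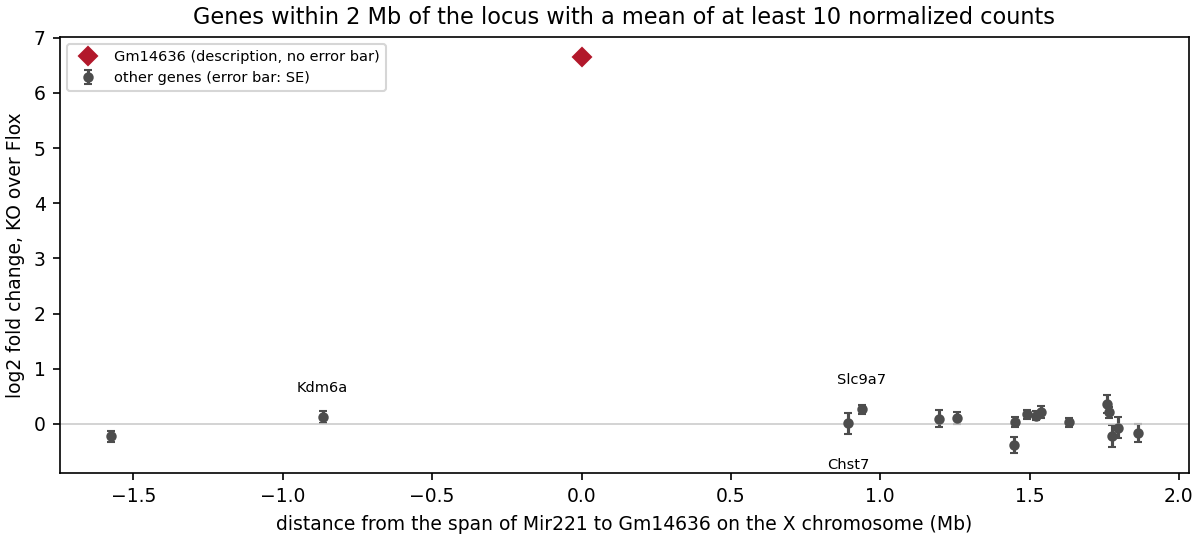
Log2 fold change, KO over Flox, of Gm14636 and of the 17 tested genes within 2 Mb, against distance from the locus in Mb; error bars are SE. Gm14636, selected on this contrast, is at 6.66 and the others lie between -0.38 and 0.35.

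The genes whose levels ran most like Gm14636 over the 8 libraries were ranked by Pearson's r of log2(normalized count + 1), as a description with no p. The libraries fall into KO and Flox groups for Gm14636, so this ranking chiefly finds genes that also separate these groups. Of 13090 genes 37 had an r above 0.9 and 50 an r below -0.9. The 5 most alike were Gm9855 (0.99), Dnmt3c (0.99), a DNA methyltransferase of rodents, Gdpd3 (0.99), a lysophospholipase D, Lyplal1 (0.98), a lysophospholipase-like gene, and Ppp1r16b (0.98), a regulatory subunit of protein phosphatase 1. Gm9855 was at 109.1 to 225.5 normalized counts in KO and Dnmt3c at 22.2 to 44.4 in KO, with both at 0 in each Flox library. The 5 most opposed were Pcgf5 (-0.98), a Polycomb group subunit, the tetraspanin Tspan32 (-0.97), the pseudogene row Gm7985 (-0.97), the TNF receptor family member Tnfrsf26 (-0.96) and Fam185a (-0.96). Pcgf5 was at 959.7 to 994.4 in KO and 1123.2 to 1177.3 in Flox. None of the 10 lies on the X chromosome.

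Messenger RNAs named in the literature as targets of miR-221 and miR-222 were read next, with Arid1a and Foxp1, which the study itself followed. All 28 listed genes had a row and 25 were tested, of which 0 passed in limma, 0 in edgeR and 3 in DESeq2, with 7 of the 25 at an unadjusted limma p under 0.05, against 15.1% of all tested genes. DESeq2 called 1.52% of all genes (199 of 13087 with an adjusted p). KO over Flox, 13 of the 25 were above and 12 below 0 on the log2 scale, and their median of 0.01 stood beside -0.01 over all tested genes. The 4 with the smallest p were Arid1a, Foxp1, Ddit4 and Fos. Arid1a, a BAF chromatin remodelling subunit, had a log2 fold change of 0.48 (SE 0.12, limma-trend adjusted p = 0.238), and Foxp1, a transcription factor of B cells, one of 0.51 (SE 0.13, limma-trend adjusted p = 0.239). The study followed both, having picked them on data that include these samples, so they are not independent evidence of direction. Both are also part of the counts above, which are thus not independent of that choice. They are among the 13 above 0, the 7 with an unadjusted limma p under 0.05 and the 3 called in DESeq2. Ddit4, an inhibitor of mTOR signalling, was at -0.46 (SE 0.12) and the immediate-early gene Fos at -0.76 (SE 0.21), each with a limma-trend adjusted p of 0.239. In DESeq2 the adjusted p was 0.0295 for Arid1a, 0.0250 for Foxp1 and 0.0460 for Ddit4. Foxp1 also passed in limma without KO 2 (0.64, adjusted p = 0.0469). Of the classical targets, Cdkn1b averaged 3634 ± 646 normalized counts in KO, against 3823 ± 517 in Flox. Bbc3 was at 1496 ± 218 in KO and 1905 ± 210 in Flox (log2 fold change -0.35, limma-trend adjusted p = 0.258). Cdkn1c, also listed, was at 33.15 ± 6.83 in KO and 63.6 ± 13.3 in Flox (log2 fold change -0.92, limma-trend adjusted p = 0.239). For both, every KO library lay below every Flox library. In all, 3 tested targets did not overlap with KO lower and 3, Arid1a and Foxp1 among them, with KO higher. Over all tested genes 7.97% did not overlap in either direction. Kit was at 49.7, 10.4, 16.2 and 11.4 in KO 1 to 4, against 15.8, 8.7, 10.4 and 7.2 in Flox 1 to 4. KO 1 was high, KO 3 lay just above the highest Flox library, and KO 2 and KO 4 lay within the Flox range.

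Ago2 CLIP at the locus was read from the authors' dCLIP output, in which a hidden Markov model compares a pair of pooled conditions in 5-nt bins. The deposited output does not say which condition is KO, so no difference is given a direction by genotype, and pooling leaves no error between libraries. The positions follow GRCm38: of the regions on chromosome X, 77.2% overlapped a gene row of their own strand and 5.80% one of the other strand. Over all regions, state 0 regions had a median difference of -0.23, state 1 regions one of -0.01 and state 2 regions one of 0.26, with 33.1%, 57.6% and 9.29% of regions in each.

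The window held 109 bins in 7 regions on the minus strand, which cover 545 of 30000 nt, and no region on the plus strand. All 109 bins had a difference below 0, where 65.6% of all bins did. Of these bins 85 (78.0%) had state 0, against 22.9% of all bins, and 0 had state 2. By region, 5 of 7 had state 0, against 33.1% of all regions. The bin differences averaged -0.22 (SD 0.12 over bins, which are not independent) and ran from -0.49 to -0.01. The bins of a region share tags, so these shares describe 7 places and are no test.

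The regions fell in 4 places, none of them on a hairpin. The first, at chrX:19145345-19145444, lies 850 nt downstream of the Mir221 hairpin, with state 0, a mean difference of -0.28 and an authors' score of 1.9. A pair of adjoining regions at chrX:19150365-19150459 lies between Mir222 and Gm14636, 3394 nt upstream of the Mir222 hairpin. Its 20-nt part had state 0 (-0.18, score 1.0) and its 75-nt part state 1 (-0.10, score 0). At the 3′ end of Gm14636, chrX:19156970-19157049 (-0.28, score 1.9) and chrX:19157055-19157184 (-0.30, score 2.2) had state 0, and chrX:19157185-19157229 had state 1 (-0.04, score 0). At the 5′ end of the Gm14636 row, chrX:19166850-19166944 had state 0, a mean difference of -0.21 and a score of 1.4. All of these scores lie below the median of 2.3 for state 0 regions. Neither hairpin was overlapped by a region, and regions overlapped 108 of the 1005 miRNA hairpins of RefSeq (10.7%).

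**Figure D5:**
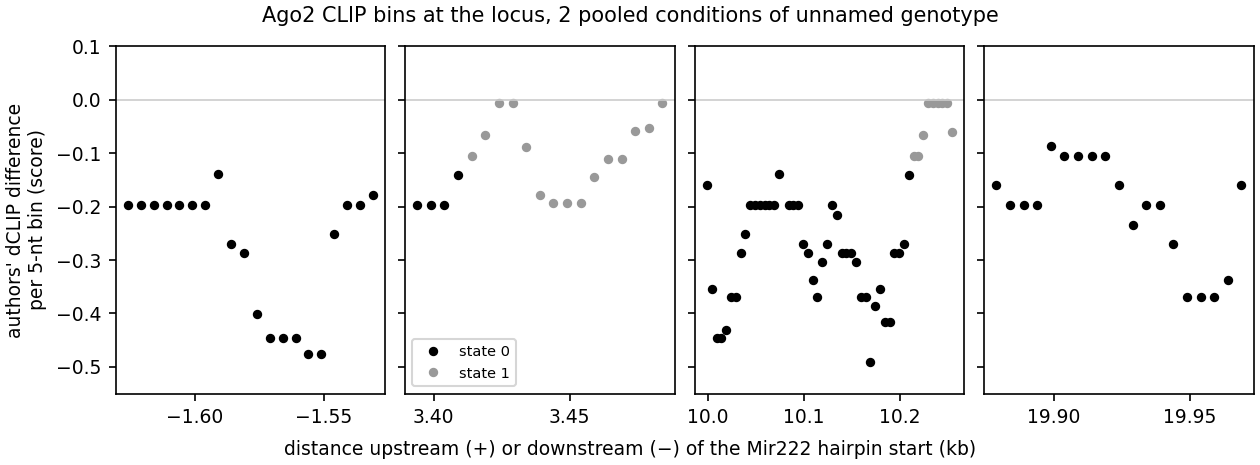
The authors' dCLIP difference (score) of each 5-nt bin at the 4 places with CLIP regions, against distance from the Mir222 hairpin start in kb; black bins have state 0 and grey bins state 1, and the genotype of the pooled conditions is not named. All 109 bins lie below 0, from -0.49 to -0.01.

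Beyond the window, a region at chrX:19186770-19186829 lies inside the RefSeq model of Gm14636, 39799 nt upstream of the Mir222 hairpin, with state 0, a mean difference of -0.29 and a score of 10.2, the highest of the regions given for the locus. A further state 0 region at chrX:19132960-19133054 lies 13240 nt downstream of the Mir221 hairpin (-0.23, score 1.3). The Gm14636 row held fewer Ago2 regions than each of the 4 tested miRNA hosts: it held 4, 0.390 per kb of span. Mir22hg held 18 (3.5 per kb), Mir17hg 39 (10.1 per kb), Mir142hg 33 (19.5 per kb) and Mir155hg 178 (14.7 per kb). The host rows too low for the test held fewer than Gm14636. Mir124-2hg (0.157 per kb), Mir670hg (0.0288 per kb) and Mir99ahg (0.00659 per kb) held 3 each, and Mir124a-1hg, Mir133a-1hg and Mir9-3hg held 0. State 2 regions made up 0 of 4 in Gm14636, 0 of 18 in Mir22hg, 3 of 39 in Mir17hg, 11 of 33 in Mir142hg and 47 of 178 in Mir155hg. Regions are cut at gaps and where the state changes, so their number is not a number of binding sites. They covered 3.41% of the span of Gm14636, 26.0% of Mir22hg, 73.0% of Mir17hg, 99.2% of Mir142hg and 96.5% of Mir155hg. The regions draw on both conditions, while Gm14636 had 994 RNA-seq reads in KO and 7 in Flox. Gm14636 was also lower than the 4 tested hosts in RNA-seq per kb of span, and the part of RNA level in the number of regions was not tested.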

How the data were processed

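The deposited RNA-seq table holds gene counts that the authors divided by 1 size factor per library, a normalized signal rounded to 1 decimal; its headers name the Flox libraries WT. Per the file headers, the same table holds a log2 fold change by the authors, its linear ratio, a p-value with FDR, and the GC percent of each gene. The deposited CLIP output gives a difference score and a state per bin and a score per region. Its 4 per-condition columns could not be matched to a genotype and are not used. Per the submitters' processing notes, cutadapt, Bowtie2, SAMtools, STAR, DESeq2 and DESeq were used with the build mm9; no versions or roles are given, and the positions in the files are those of GRCm38.

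The values were whole multiples of 1 read in every library (100% of low values within 0.1 read). Genes with a mean of at least 10 normalized counts, 13091 in all, were tested with limma-trend (limma 3.58.1, R 4.3.3) on log2(value + 1), two-sided, with Benjamini-Hochberg adjustment over all of them and a threshold of 0.05. The alternatives were TMM scaling, no filter, a pseudocount of 10, edgeR 4.0.16 and DESeq2 1.42.0 on the recovered reads, a replicate block and leaving out libraries. Leaving out KO 1 and KO 3 together was not planned in advance. The p-values rest on the spread among these libraries alone, which may be technical. Intervals and floors cover counting error only.

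Named genes were the 3 rows, genes within 1 Mb with a mean of at least 10, the 5 highest miRNA precursor rows, all host rows, the 5 genes most and the 5 least like Gm14636, and the 4 targets with the smallest p; other target genes and Gm26652 were added after their values were seen. The members and lists were chosen with earlier results of these data known. CLIP bins were joined into regions as in the deposited summary, and 616 of 962700 regions on unplaced sequence or below position 3000000 were left out. No genome sequence was used; sequences come from RefSeq tables.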

Additional observations from a re-analysis of the deposited data

How the results depend on the processing

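The count of 9 genes past the threshold was 199 with DESeq2, 8 to 17 with 1 library left out (17 without KO 2 and 14 without KO 4) and 6 without KO 1 and KO 3 together. The literature targets, 0 in limma, gave 3 with DESeq2 and 0 to 1 with 1 library left out. Arid1a and Foxp1, picked by the study on data that include these samples, were among these 3, and Foxp1 was the 1 without KO 2. The log2 fold change of Gm14636, 6.66, was 4.53 with a pseudocount of 10, 7.23 with edgeR and 7.33 with DESeq2, since it depends on what is added to a Flox level near 0, and it was 6.49 to 6.88 with 1 library left out and 6.68 when summed with Gm26652. Signs turned for some single genes. With 1 library left out Chst7 ran from -0.19 (without KO 2) to 0.095, Mir17hg from -0.16 to 0.072 (without KO 3), Mir155hg from -0.035 (without KO 3) to 0.34, and Mir6236 from -0.16 (without KO 1) to 0.26. Without KO 1 and KO 3 together Mir17hg was at 0.023, Mir155hg at -0.23, Mir6236 at -0.24 and Mir5107 at 0.014; the cause was not tested. With the replicate number as a block the count was 11. Gm14636 was again at 6.66, which the design fixes, since each number holds 1 KO and 1 Flox library. Same-numbered libraries deviated with correlations of -0.09, -0.06, -0.05 and 0.00, so the numbers were not taken to pair the libraries. TMM scaling left the median log2 fold change at -0.01. The mean region difference at the locus, -0.20, was -0.17 by medians of bins, -0.18 from Mir221 to Gm14636 and -0.22 over the RefSeq span. A cut at regions of at least 20 nt left out no region, so its value of -0.20 is the same one. At the hairpin rows a count of 0 allows up to 3 reads per library.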
